A study of Mus musculus with 10 samples.

Results

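Expression of 37 imprinted genes outside the Igf2 axis was followed in differentiating mouse embryonic stem (ES) cells with altered levels of Tet3, whose protein oxidises methylated cytosines. The genes were chosen by symbol as the imprinted genes of 14 domains, without Igf2, H19 and their growth factor partners, and all 37 were found among the 21937 symbols of the deposited expression table. An imprinted gene is expressed mainly from the allele inherited from 1 parent. For most imprinted genes the difference between the alleles is set by DNA methylation laid down in the germ line at control regions. Many imprinted genes act on fetal growth, placenta and brain. In mouse embryos, a network of them is known to be expressed together in growing mesodermal and endodermal tissues and to be turned down after birth. Of the 37 genes, 19 are known to be expressed mainly from the paternal allele and 15 from the maternal allele, while Grb10, Gnas and Blcap depend on tissue or isoform.

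Total RNA was profiled in 10 libraries of C57BL/6-background cells, 1 for each condition and day. In a serum-free aggregate culture that favours neuroectoderm (SFEB), days 10 and 6 were each sampled in Tet3 knockout cells given Dkk (KO with Dkk), untreated knockout cells (KO) and wild-type cells (WT). Dkk is a secreted inhibitor of Wnt receptors. The knockout cells came from mice with floxed Tet3 alleles, and the floxed exon was removed by passing expression of Cre recombinase. In the other culture, with fetal bovine serum (FBS), where neural differentiation is not favoured, days 7 and 4 were each sampled in Tet3-overexpressing cells (OE) and control cells. The labels do not name clones, the source of the Tet3 transgene or the kind and dose of Dkk, so a difference between genotypes cannot be told apart from one between lines of cells.

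Values are RPKM, reads scaled by transcript length and library total, and can be compared between genes. Depth, estimated from the values, came to 37000000 reads in KO with Dkk on day 10, 10200000 to 11300000 in the remaining 5 SFEB libraries and 17400000 to 43900000 in FBS. Tet3 stood at 14.1 RPKM in OE and 5.87 in control on day 7, and 12.5 in OE and 0.96 in control on day 4. Whole-gene Tet3 values in the SFEB libraries, 13.1 to 14.3 RPKM in the knockout libraries of day 10 against 10.2 in WT, do not check the removal of a single exon. The labels call all samples embryonic stem cells, and their titles add EB, for embryoid body, and the day of culture. Pluripotency markers, 8 genes, summed to 17.6 to 87.4 RPKM in SFEB libraries and 921 to 3661 RPKM in FBS libraries. Neural progenitor markers, 10 genes, summed to 867 to 1057 RPKM on day 10 of SFEB, of which Fabp7 alone gave 624 to 759. No value distinguishes the parental alleles, so the data give the summed level of both and not the state of an imprint.

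Levels of the 37 genes spanned a wide range. Nnat, which encodes the small membrane protein neuronatin, held the highest value, 1846 RPKM in KO with Dkk on day 10. Zim1, Kcnq1ot1 and Rasgrf1 stayed under 1 RPKM in all 10 libraries, and 30 genes reached 5 RPKM in at least 1. The 37 genes together made up 0.69% of the summed RPKM in KO with Dkk, 0.684% in KO and 0.658% in WT on day 10, and 0.333%, 0.366% and 0.275% in the same order of cells on day 6. Much of the day 10 share was Nnat alone. It gave 1846 of the 3105 RPKM of the set in KO with Dkk, 1434 of 2874.5 in KO and 1558 of 2684 in WT. On day 6 it gave 178 of 1475.5 RPKM in KO with Dkk, 365 of 1641 in KO and 260 of 1192 in WT. In the FBS culture they made up 0.134% in OE and 0.49% in control on day 7, and 0.0983% in OE and 0.118% in control on day 4. Control cells on day 7 gave the highest of the 10 values for 12 of the 34 genes that reached 1 RPKM anywhere, and for 12.5% of the 13757 genes of the table at that level.

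**Figure D1:**
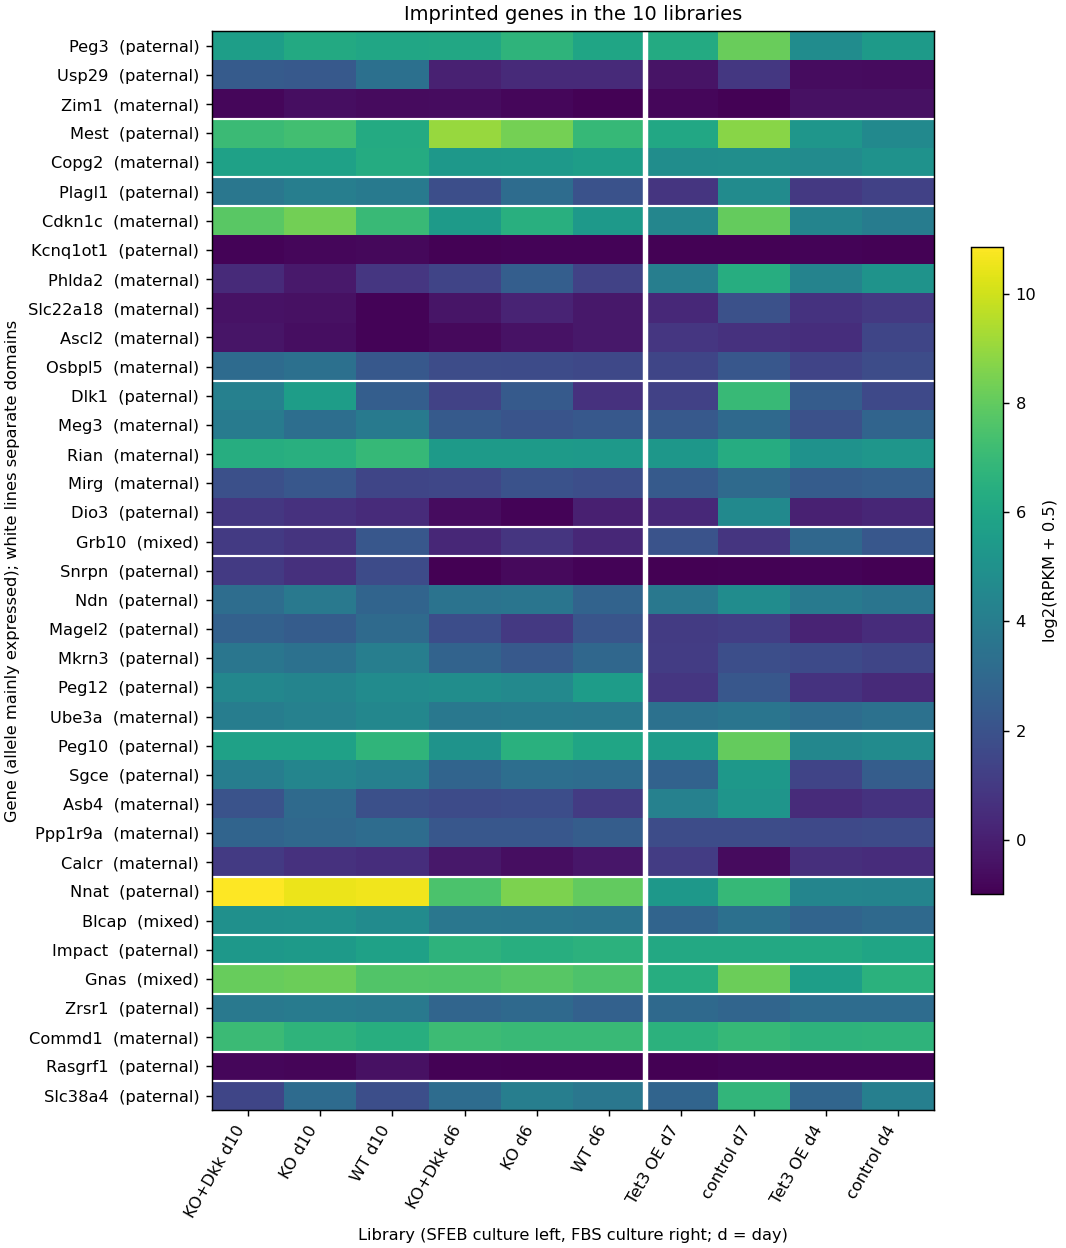
Level of each of the 37 imprinted genes, as log2(RPKM + 0.5) by colour, in the 10 libraries, with 1 library per column and genes grouped by domain. The column of control cells on day 7 is brighter than its FBS neighbours for Peg3, Mest, Plagl1, Cdkn1c, Dlk1, Dio3, Peg10 and Slc38a4, and Nnat is brightest on day 10 of SFEB.

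The first comparison asks what raised Tet3 does in serum. On day 7, 18 of 33 imprinted genes were 2-fold or more lower in OE than in control cells, against 11.1% of all genes. Slc38a4, an amino acid transporter gene of placenta and liver, was at 6.55 RPKM in OE and 112 in control, and Plagl1, a zinc-finger transcription factor gene, was at 1.26 in OE and 25.7 in control. The 33 genes are those that reached 1 RPKM in the FBS culture, and 2 of them were 2-fold or more higher in OE, Calcr and Grb10, against 6.96% of all 12387 genes compared. The median log2 ratio was -1.02 over the 33 genes and -0.03 over all genes. Of 16 genes expressed mainly from the paternal allele, 12 were lower with a median of -1.78, and of 14 from the maternal allele, 5 were lower and 1 higher with a median of -0.72. The maternal gene counted as higher was Calcr. It reached 1 RPKM in FBS only in the OE libraries, so by this choice it had to be higher in OE on at least 1 day. Usp29 and Dio3 passed the filter only through control cells on day 7, so by this choice they had to be higher there. Over genes that reached 1 RPKM in another FBS library, a filter added after seeing the data, 16 of 31 imprinted genes were lower in OE, against 8.17% of all genes.

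On day 4 the same cells differed far less. Slc38a4 and Sgce were 2-fold or more lower in OE, 2 of 33 genes, and 0 were higher, against 3.47% lower and 1.72% higher of all genes. The day 4 median was -0.19 over the 33 genes and -0.07 over all. With 1 library a day, the day 7 difference has no replicate, and it rests on a single control library.

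**Figure D2:**
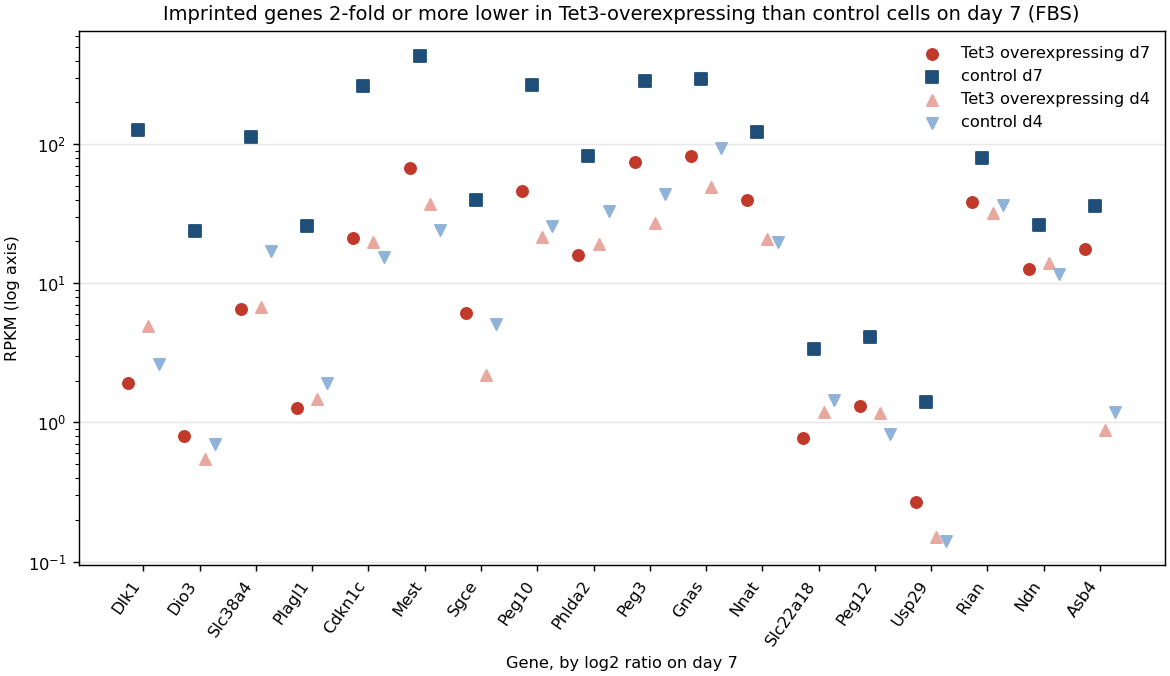
RPKM on a log axis of the 18 imprinted genes that were 2-fold or more lower in Tet3-overexpressing than in control cells on day 7, with 1 point per library of the FBS culture. In every gene plotted, control cells on day 7 stand above the other FBS libraries.

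In serum, the control cells differed between days where the OE cells mostly did not. In control cells 17 of 33 genes were 2-fold or more higher on day 7 than on day 4, against 11.5% of all genes, and 2 were lower on day 7, Grb10 and Calcr, against 8.71%. In OE cells 4 of 33 genes were 2-fold or more higher on day 7 than on day 4, Asb4, Peg3, Sgce and Peg10, against 3.49% of all genes, and Dlk1 was lower, against 1.2%. The 17 include Usp29 and Dio3, and with the filter that leaves out the control library of day 7, 15 of 31 were higher, against 8.58% of all genes. Both the day 7 difference and the control time course use the control library of day 7, so they are not separate evidence.

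Markers of several cell types differed beside these genes on day 7. Fibroblast and mesenchyme markers summed to 37.9 RPKM in OE and 384 in control, with 8 of 10 lower and 1 higher in OE and Lum listed at 0 there. Visceral endoderm markers summed to 26.6 in OE and 252 in control with 6 of 8 lower. Endothelium markers summed to 21.9 in OE and 127 in control with 6 of 6 lower, and cardiac markers to 19.9 in OE and 202 in control with 6 of 6 compared lower. Trophoblast markers summed to 24.9 in OE and 249.7 in control with 4 of 6 compared lower and 1 higher, although Hand1, also a gene of heart and lateral mesoderm, made up 158 RPKM of the control sum and Prl3d1 was listed at 0 in both. Pluripotency markers were the reverse, at 2409 RPKM in OE and 921 in control with 6 of 8 higher, as were neural progenitor markers at 143 in OE and 40.2 in control (5 of 7 compared higher) and neuron markers at 183 in OE and 29.3 in control (4 of 4 compared higher). Lum, Prrx1, Afp, Tnnt2, Nkx2-5 and Gata3 passed the filter only through control cells on day 7. By this choice they had to be higher there. The part of these cell types in the imprinted gene differences was not tested. In bulk RNA, fewer cells of a type and less RNA per cell cannot be told apart.

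**Figure D3:**
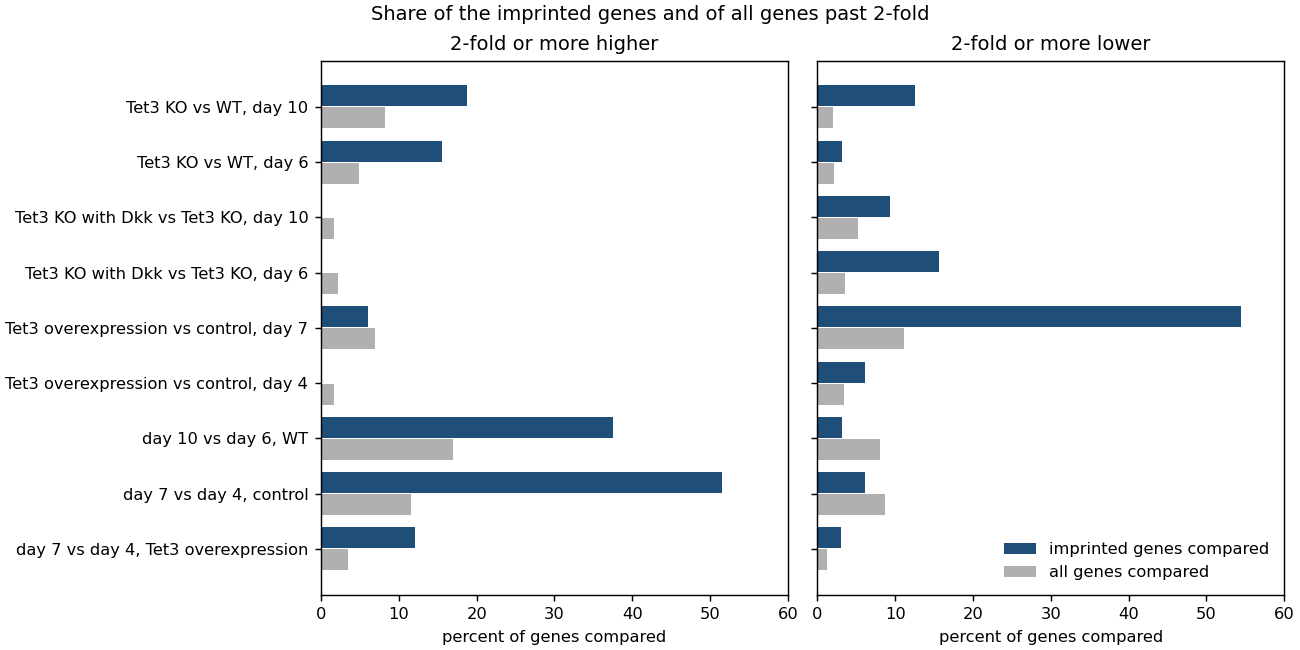
Percent of the imprinted genes compared and of all genes compared that were 2-fold or more higher (left) or lower (right) in the first-named group of each comparison, 33 imprinted genes in FBS and 32 in SFEB. The bars of Tet3 overexpression on day 7 (lower) and of control cells from day 4 to day 7 (higher) reach 54.5% and 51.5% of the imprinted genes, against 11.1% and 11.5% of all genes, with Usp29 and Dio3 counted in both.

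The second comparison asks how loss of Tet3 changes these genes under neural conditions. Mest, Cdkn1c and Dlk1 were 2-fold or more higher in KO than in WT on both days, 3 of 32 genes above the filter, against 2.11% of all 12912 genes compared. Mest on day 10 was near the threshold, at 1.02, and was short of it with TPM scaling (0.98) and median centring (0.95). No gene of the set was 2-fold or more lower on both days, against 0.372%. On day 10, 6 of 32 genes were higher in KO, with Slc38a4, Asb4 and Osbpl5 beside these 3, and Grb10, Snrpn, Usp29 and Phlda2 were lower, against 8.26% and 1.96% of all genes. On day 6, 5 of 32 were higher, with Phlda2 and Plagl1 beside these 3, and Magel2 was lower, against 4.88% and 2.18%. With values scaled to TPM, 5 were higher and 3 lower on day 6, and either TPM scaling or median centring gave 5 higher and 5 lower on day 10. The medians over the 32 genes were 0.12 on day 10 and 0.13 on day 6, and 0.06 and 0.00 over all genes, and most of the set lay within 2-fold of WT.

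Markers of mesodermal cells also differed in the knockout. Fibroblast and mesenchyme markers summed to 69.05 RPKM in KO with Dkk, 649 in KO and 48.2 in WT on day 10, with 10 of 10 higher in KO than in WT, and to 13.9 RPKM in KO with Dkk, 36.1 in KO and 12.6 in WT on day 6, with 4 of 10 higher. Primitive streak and mesoderm markers summed to 12.7 RPKM in KO with Dkk, 30.8 in KO and 13.7 in WT on day 10, with 5 of 9 compared higher in KO than in WT and T and Eomes lower, and to 27.4 RPKM in KO with Dkk, 299 in KO and 8.11 in WT on day 6, with 8 of 9 higher and Mesp1 at 0 in KO with Dkk. Cardiac and muscle markers summed to 75.8 RPKM in KO with Dkk, 175 in KO and 7.63 in WT on day 10, with 6 of 6 compared higher than in WT in KO and in KO with Dkk alike, and to 3.90 RPKM in KO with Dkk, 21.1 in KO and 3.23 in WT on day 6, with 5 of 6 higher in KO. Pluripotency markers summed to 18.5 RPKM in KO with Dkk, 17.6 in KO and 51.7 in WT on day 10, with 5 of 7 compared lower and Esrrb higher in KO, and to 87.4 RPKM in KO with Dkk, 62.6 in KO and 68.9 in WT on day 6. Neuron markers summed to 1787 RPKM in KO with Dkk, 1481 in KO and 1679 in WT on day 10. On day 6 they summed to 105 RPKM in KO with Dkk, 84.45 in KO and 177 in WT, with 1 of 10 higher and 1 lower in KO than in WT and a median of -0.76. Neural progenitor markers summed to 1057 RPKM in KO with Dkk, 1010 in KO and 867 in WT on day 10, with 1 of 10 higher and 2 lower in KO. Fabp7 alone gave 713, 759 and 624 RPKM of these sums. On day 6 the sums were 354, 221 and 384 in the same order, with 0 higher and 3 lower in KO. Meox1 alone gave 162 RPKM of the mesoderm marker sum of KO on day 6. Tbx6, Mesp1, Tcf15 and Foxc2 passed the filter only through KO, and Meox1, Foxc1, Myl7 and Myh6 only through knockout libraries. By this choice they had to be higher than in WT on at least 1 day. Zfp42, counted as lower in KO on day 10, passed it only through WT, so it had to be lower on at least 1 day. The part of these markers in the imprinted gene differences was not tested.

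The third comparison asks what Dkk does in the knockout. No gene of the set was 2-fold or more higher with Dkk on either day, against 1.7% of all genes on day 10 and 2.18% on day 6. Slc38a4, Dlk1 and Asb4 were lower on day 10, 3 of 32, against 5.23%, and Peg10, Plagl1, Phlda2, Nnat and Dlk1 on day 6, 5 of 32, against 3.57%. Dlk1 was lower on both days, 1 of 32, against 1.56% of all genes, and 0 were higher on both, against 0.364%. Set against WT, KO with Dkk differed 2-fold or more in Dlk1 (higher) and Grb10 (lower) on day 10, against 4.59% and 1.68% of all genes, and in Mest (higher) on day 6, against 1.58%, with 0 lower against 0.976%. TPM scaling added 1 lower gene on day 6. On day 10, either TPM scaling or median centring gave 1 higher and 3 lower. These comparisons share the KO or WT libraries with those above.

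**Figure D4:**
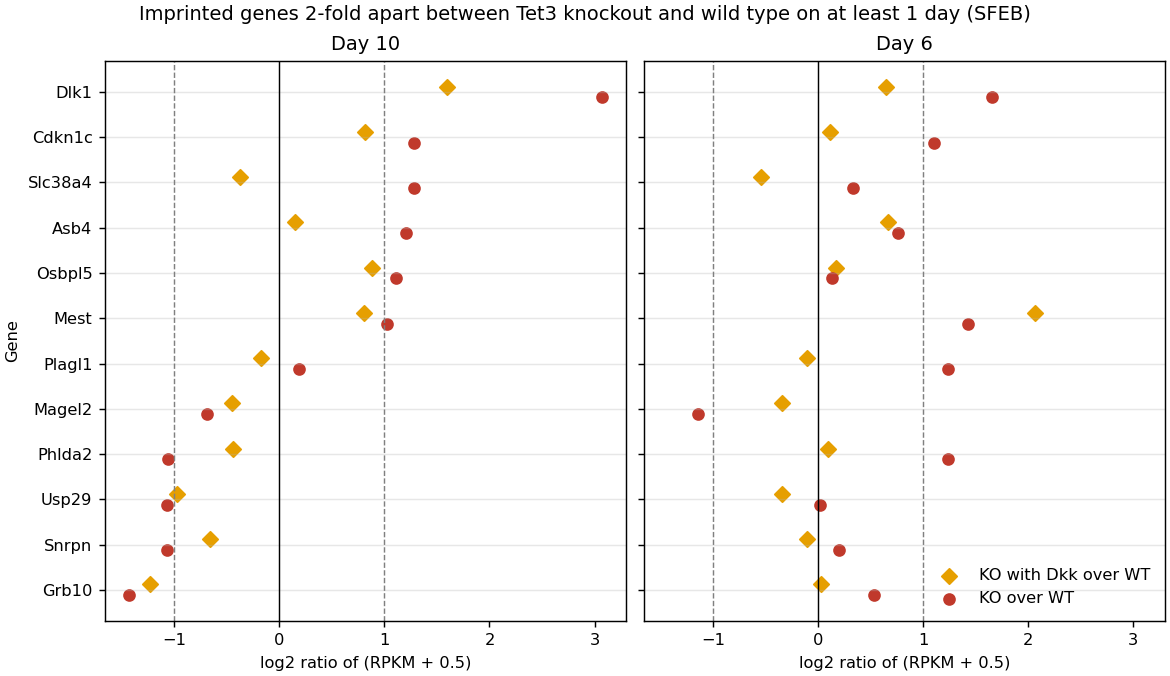
Log2 ratio of (RPKM + 0.5) over wild type of the 12 imprinted genes that were 2-fold or more apart between Tet3 knockout and wild type on at least 1 day, day 10 left and day 6 right, 1 library per condition. Diamonds (KO with Dkk) lie nearer to 0 than circles (KO) for Dlk1 and Cdkn1c on both days, while Mest on day 6 lies further out with Dkk.

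A model over all 10 libraries asked which genes differed alike on both days of a culture. It used limma on log2(RPKM + 0.5) with the day within its culture as a term, so the other day stood in for a replicate. None of the 34 genes tested passed a Benjamini-Hochberg adjusted p of 0.05 over 13757 genes. For KO against WT limma called 0.196% of all genes higher and 0.0145% lower, and 5 of 34 imprinted genes had an unadjusted p under 0.05, against 14.7% of all genes. These were Asb4 and Ndn, both higher, and Magel2, Copg2 and Mkrn3, all lower, with the smallest limma adjusted p, 0.172, for Magel2. For KO with Dkk against KO limma called 0.0145% higher and 0.116% lower, and 0 of the 34 had an unadjusted p under 0.05, against 5.68% of all genes. For OE against control it called 0.0436% higher and 0.0509% lower, and 11 of the 34 had an unadjusted p under 0.05, all lower, against 19.6% of all genes. Gnas came nearest, with a log2 difference of -1.37, SE 0.22 and a limma adjusted p of 0.0799, then Sgce with -1.83, SE 0.34 and a limma adjusted p of 0.0962. Dlk1 and Mest, which had OE to control ratios of opposite sign on days 7 and 4, have a large spread in this model. Without the control library of day 4 limma called 9 of the 34 for OE against control, and without the OE library of day 4 it called 10, all lower, where the day 7 libraries alone carry the contrast, and where 769 and 919 of all 13757 genes were called. Fitted on the SFEB libraries alone, KO against WT gave 2 calls, Cdkn1c and Dlk1, both higher, among 253 over all genes.

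In the Peg3 domain, Peg3 and Usp29 are read in opposite directions from neighbouring starts and both are expressed from the paternal allele. Peg3 encodes a zinc-finger protein. It stood at 49.5 RPKM in KO with Dkk, 72.2 in KO and 63.5 in WT on day 10, and 67.97 in KO with Dkk, 106 in KO and 62.9 in WT on day 6. In FBS it stood at 74.5 RPKM in OE and 287 in control on day 7, and 27.03 in OE and 43.6 in control on day 4. Apart from KO on day 6, the SFEB values lay within 1.5-fold of each other, and Peg3 was highest in control cells on day 7, with a log2 ratio of OE to control of -1.94 (95% counting interval -1.99 to -1.90). Usp29, which encodes a ubiquitin-specific protease, followed another course, at 4.81 RPKM in KO with Dkk, 4.47 in KO and 9.95 in WT on day 10, and 0.55 in KO with Dkk, 0.85 in KO and 0.83 in WT on day 6. It was highest in WT on day 10, where the KO ratio was -1.07 (interval -1.47 to -0.85). In FBS it was at 0.27 RPKM in OE and 1.40 in control on day 7, and 0.15 in OE and 0.14 in control on day 4. Zim1, a maternally expressed zinc-finger gene of the domain, did not pass 0.23 RPKM in any library. Counting intervals are of the ratio of estimated reads, carry no pseudocount and cover counting error only, so a ratio computed with the pseudocount can lie outside its interval when values are low.

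The Mest domain joins Mest, a paternally expressed gene of embryonic mesoderm that encodes a protein of the endoplasmic reticulum, and Copg2, which encodes a subunit of the vesicle coat. Mest was at 134 RPKM in KO with Dkk, 156 in KO and 76.3 in WT on day 10, and 516 in KO with Dkk, 330.2 in KO and 123 in WT on day 6. It was higher on day 6 than on day 10 in each of the 3 kinds of cells, and lowest in WT on both days. Log2 ratios of KO to WT were 1.02 on day 10 (interval 0.87 to 1.18) and 1.43 on day 6 (interval 1.31 to 1.55), and ratios of KO with Dkk to WT were 0.80 on day 10 and 2.07 on day 6. In serum Mest was at 67.98 RPKM in OE and 435 in control on day 7, and 37.5 in OE and 24.3 in control on day 4. The control library of day 7 again stood alone, with a ratio of OE to control of -2.67 there and 0.61 on day 4. Copg2 varied less, at 53.8 RPKM in KO with Dkk, 53.9 in KO and 76.6 in WT on day 10, and 39.96 in KO with Dkk, 40.3 in KO and 48.3 in WT on day 6. It was highest in WT on both days, by less than 2-fold. In FBS, Copg2 was at 27.6 RPKM in OE and 28.2 in control on day 7, and 25.9 in OE and 31.9 in control on day 4, and the 4 values were close. Mest and Copg2 overlap at their ends in the annotation, and how reads in such overlaps were assigned is not given in the sources used here.

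Plagl1 encodes a transcription factor that is known in mouse to regulate other imprinted genes of the fetal network, among them Igf2, Cdkn1c and Dlk1. It stood at 12.6 RPKM in KO with Dkk, 16.4 in KO and 14.3 in WT on day 10, and 3.15 in KO with Dkk, 8.75 in KO and 3.42 in WT on day 6. On day 10 the 3 values lay close together, and on day 6 the KO library stood above the other two, with a ratio to WT of 1.24 (interval 0.48 to 2.28). In serum Plagl1 was at 1.26 RPKM in OE and 25.7 in control on day 7, and 1.48 in OE and 1.92 in control on day 4, and the OE to control ratio on day 7 was -3.90 (interval -5.41 to -3.44).

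Promoter sequences of Mest, Plagl1 and Peg3, paternally expressed genes that were all lower in OE on day 7, are shown with those of Dlk1 and Meg3. These 2 are neighbours of opposite parental origin, with KO to WT ratios on day 10 of 3.07 for Dlk1 and -0.595 for Meg3. Each is the 250 bases before an annotated start, from RefSeq on build GRCm38.p6, while the expression table was made on mm9. Capitals mark the hexamer TGCCGC on either strand, the core recognised by ZFP57, a zinc-finger protein that protects methylated imprints when the hexamer is methylated. The Mest window lies at chr6:30737800-30738049 on the plus strand, Plagl1 at chr10:13090582-13090831 on the plus strand, Peg3 at chr7:6730420-6730669 on the minus strand, Dlk1 at chr12:109452573-109452822 on the plus strand and Meg3 at chr12:109540746-109540995 on the plus strand.
Mest: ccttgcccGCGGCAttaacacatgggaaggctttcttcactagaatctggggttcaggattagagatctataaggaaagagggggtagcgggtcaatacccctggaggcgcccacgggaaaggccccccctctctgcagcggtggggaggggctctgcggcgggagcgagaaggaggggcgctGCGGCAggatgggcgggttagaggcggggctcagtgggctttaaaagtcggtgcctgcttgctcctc
Plagl1: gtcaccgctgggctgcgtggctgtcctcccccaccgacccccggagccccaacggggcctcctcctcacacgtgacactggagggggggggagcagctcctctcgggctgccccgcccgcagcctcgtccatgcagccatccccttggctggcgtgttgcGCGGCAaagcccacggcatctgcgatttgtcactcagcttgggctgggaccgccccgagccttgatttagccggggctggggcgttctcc
Peg3: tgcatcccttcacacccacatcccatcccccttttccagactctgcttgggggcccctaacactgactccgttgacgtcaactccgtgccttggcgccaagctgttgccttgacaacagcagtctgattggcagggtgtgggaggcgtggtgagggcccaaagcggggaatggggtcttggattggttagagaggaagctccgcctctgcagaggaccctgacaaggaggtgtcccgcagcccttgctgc
Dlk1: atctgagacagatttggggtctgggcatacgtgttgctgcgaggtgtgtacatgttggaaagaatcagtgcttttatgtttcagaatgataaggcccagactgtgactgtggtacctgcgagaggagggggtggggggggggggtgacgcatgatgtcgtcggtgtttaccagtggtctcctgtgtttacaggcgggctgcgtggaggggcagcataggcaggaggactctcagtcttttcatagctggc
Meg3: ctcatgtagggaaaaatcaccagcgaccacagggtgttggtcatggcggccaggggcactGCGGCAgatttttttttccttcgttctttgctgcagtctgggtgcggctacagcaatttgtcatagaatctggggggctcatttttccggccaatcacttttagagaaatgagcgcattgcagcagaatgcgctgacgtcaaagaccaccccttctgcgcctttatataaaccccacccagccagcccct
The Mest stretch holds 2 copies of the hexamer and 14 CpG dinucleotides, Plagl1 1 copy and 19 CpG, Peg3 0 copies and 8 CpG, Dlk1 0 copies and 8 CpG, and Meg3 1 copy and 10 CpG. Mest has 3 annotated starts and Meg3 2, and the windows of the other Mest promoter and of the other Meg3 start, not shown, hold 0 copies. Windows of 300 bases, from 250 before to 50 after the start, were found for 33 of the 37 genes, and not for Cdkn1c, Peg10, Sgce and Impact. At least 1 hexamer was in 12 of their 51 windows (23.5%), belonging to 11 genes, against 11.6% of all 32851 windows of that length, and the median number of CpG was 13 against 7 in all windows. Some windows overlap, among them a pair of Mest and those of Peg3 and Usp29, so windows are not independent. A match describes the sequence and shows neither binding nor methylation in these cells.

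The Kcnq1ot1 domain holds mostly maternally expressed growth-restraining genes around a paternally expressed silencing RNA. Cdkn1c, which encodes the cell cycle inhibitor p57, was at 229 RPKM in KO with Dkk, 317 in KO and 129.8 in WT on day 10, and 43.7 in KO with Dkk, 87.4 in KO and 40.3 in WT on day 6. It was highest in KO and lowest in WT on both days, with KO to WT ratios of 1.28 (interval 1.18 to 1.39) and 1.11 (interval 0.91 to 1.33). In FBS, Cdkn1c was at 21.04 RPKM in OE and 262 in control on day 7, and 19.9 in OE and 15.4 in control on day 4. The control library of day 7 exceeded the other FBS libraries more than 10-fold, and the OE to control ratio there was -3.61 (interval -3.83 to -3.45). Phlda2, which restrains placental growth, was at 0.83 RPKM in KO with Dkk, 0.37 in KO and 1.31 in WT on day 10, and 2.16 in KO with Dkk, 5.38 in KO and 1.99 in WT on day 6. Its low SFEB values rest on few estimated reads. The KO to WT ratio was -1.06 on day 10 (interval -4.87 to 0.95) and 1.24 on day 6 (interval 0.15 to 2.76). In FBS it was much more abundant, at 16.1 RPKM in OE and 82.8 in control on day 7, and 19.2 in OE and 33.3 in control on day 4.

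Osbpl5, which encodes a lipid transfer protein, was at 8.28 RPKM in KO with Dkk, 9.80 in KO and 4.26 in WT on day 10, and 2.85 in KO with Dkk, 2.75 in KO and 2.47 in WT on day 6. It was higher in both knockout libraries than in WT on day 10, with a KO ratio of 1.11, and nearly level on day 6. In FBS, Osbpl5 was at 2.28 RPKM in OE and 4.12 in control on day 7, and 2.20 in OE and 2.92 in control on day 4. Slc22a18, a transporter gene, did not pass 0.65 RPKM in SFEB and was at 0.77 RPKM in OE and 3.37 in control on day 7, and 1.18 in OE and 1.45 in control on day 4. Ascl2, a transcription factor gene needed for trophoblast, reached 0.36 RPKM at most in SFEB and 2.29 RPKM in control cells on day 4. Kcnq1ot1 RNA was listed at 0.09 RPKM or less in all 10 libraries.

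The Dlk1-Dio3 domain expresses its protein genes from the paternal allele and its noncoding RNAs from the maternal allele. Dlk1, which encodes a transmembrane protein with repeats like those of Notch ligands, was at 17.1 RPKM in KO with Dkk, 48.6 in KO and 5.34 in WT on day 10, and 2.01 in KO with Dkk, 4.54 in KO and 1.10 in WT on day 6. KO stood highest, KO with Dkk between and WT lowest on both days. KO to WT ratios were 3.07 on day 10 (interval 2.85 to 3.54) and 1.66 on day 6 (interval 1.23 to 3.04), and ratios of KO with Dkk to KO were -1.48 (interval -1.66 to -1.36) and -1.01 (interval -1.86 to -0.48). In serum, Dlk1 was at 1.92 RPKM in OE and 126 in control on day 7, and 4.94 in OE and 2.61 in control on day 4. The OE to control ratio of -5.71 on day 7 (interval -6.51 to -5.61) was the lowest of the 33 genes, while on day 4 OE stood above control by 0.81.

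Dio3, which encodes the enzyme that inactivates thyroid hormone, stayed at or under 1.40 RPKM in the SFEB libraries. In FBS it was at 0.80 RPKM in OE and 23.8 in control on day 7, and 0.55 in OE and 0.70 in control on day 4, so that of the 10 libraries only control cells on day 7 reached 5 RPKM. The ratio of OE to control there was -4.23 (interval -5.56 to -4.33). The maternally expressed RNAs varied less. Meg3, a long noncoding RNA, was at 14.7 RPKM in KO with Dkk, 9.25 in KO and 14.2 in WT on day 10, and 4.64 in KO with Dkk, 3.77 in KO and 4.37 in WT on day 6. On day 10 KO was lower than both WT and KO with Dkk, by less than 2-fold. In FBS, Meg3 was at 4.49 RPKM in OE and 7.76 in control on day 7, and 3.34 in OE and 6.47 in control on day 4.

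Rian, the host of a snoRNA cluster, was at 82.95 RPKM in KO with Dkk, 89.03 in KO and 124 in WT on day 10, and 44.1 in KO with Dkk, 44.1 in KO and 41.6 in WT on day 6. It was highest in WT on day 10 and level among the 3 libraries of day 6. In FBS, Rian was at 38.5 RPKM in OE and 79.5 in control on day 7, and 32.04 in OE and 36.6 in control on day 4, with an OE to control ratio of -1.04 on day 7 (interval -1.18 to -0.91). Mirg, the host of a microRNA cluster, was at 3.24 RPKM in KO with Dkk, 4.22 in KO and 2.30 in WT on day 10, and 2.38 in KO with Dkk, 3.42 in KO and 3.09 in WT on day 6. Its FBS values were 4.62 RPKM in OE and 7.94 in control on day 7, and 4.89 in OE and 5.45 in control on day 4. Across the domain the day 7 ratio of OE to control was -5.71 for Dlk1 and -4.23 for Dio3, and -1.04 for Rian, -0.73 for Meg3 and -0.72 for Mirg.

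**Figure D5:**
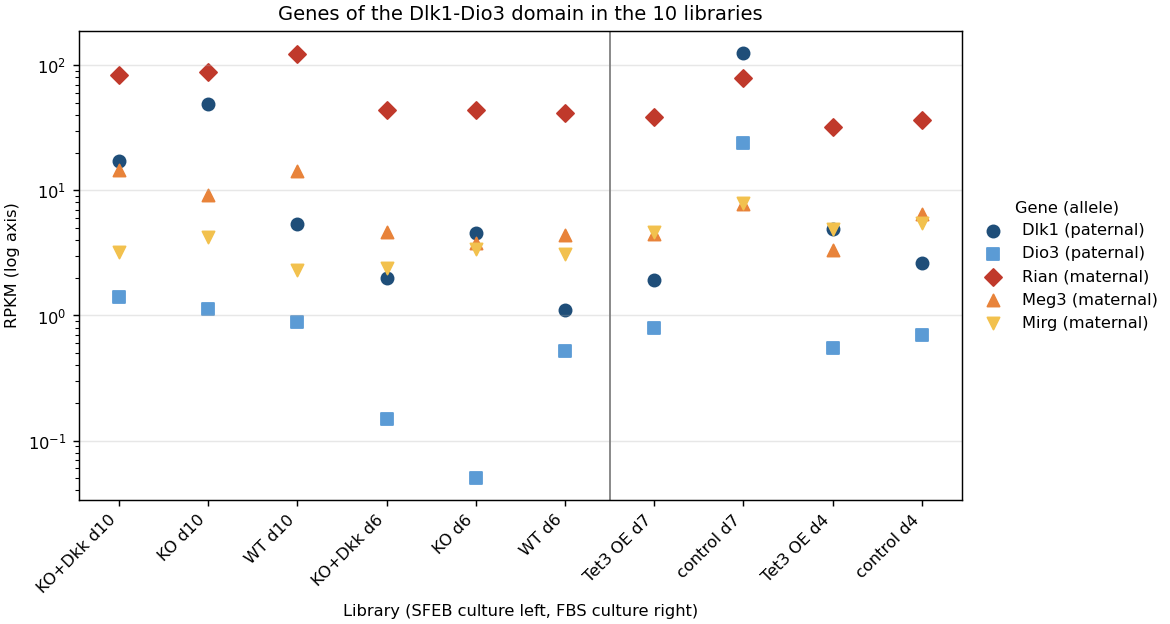
RPKM on a log axis of the 5 genes of the Dlk1-Dio3 domain in the 10 libraries, 1 point per gene and library, blue for paternally and warm colours for maternally expressed genes. Dlk1 and Dio3 stand far above their other FBS values in control cells on day 7, while Rian, Meg3 and Mirg vary less.

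The domain of Snrpn and Ube3a has a human counterpart that is affected in Prader-Willi and Angelman syndromes. By ratios with the pseudocount, Mkrn3 and Ube3a lay within 2-fold in every comparison of conditions on the same day. Snrpn, Magel2, Ndn and Peg12 each passed 2-fold in 1 such comparison. Peg12, related to the Frat regulators of Wnt signalling, was at 21.6 RPKM in KO with Dkk, 19.8 in KO and 26.1 in WT on day 10, and 27.9 in KO with Dkk, 23.3 in KO and 46.6 in WT on day 6. WT was highest on both days and every SFEB value exceeded every FBS value. The KO to WT ratio was -0.39 on day 10 and -0.99 on day 6 (interval -1.14 to -0.86), just short of 2-fold with the pseudocount. In FBS, Peg12 was at 1.32 RPKM in OE and 4.13 in control on day 7, and 1.17 in OE and 0.82 in control on day 4. Ndn, which encodes a growth-restraining protein of the MAGE family, was at 8.92 RPKM in KO with Dkk, 13.4 in KO and 6.50 in WT on day 10, and 11.02 in KO with Dkk, 11.6 in KO and 6.29 in WT on day 6. WT was lowest on both days, with KO ratios of 0.99 on day 10 (interval 0.83 to 1.26) and 0.83 on day 6. Both were under 2-fold with the pseudocount, although the day 10 RPKM values themselves were slightly more than 2-fold apart. In FBS, Ndn was at 12.8 RPKM in OE and 26.5 in control on day 7, and 14.1 in OE and 11.6 in control on day 4.

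Magel2, another MAGE family gene, had the reverse order of its neighbour Ndn. It was at 5.83 RPKM in KO with Dkk, 4.88 in KO and 8.17 in WT on day 10, and 2.94 in KO with Dkk, 1.47 in KO and 3.86 in WT on day 6. KO was lowest on both days, with ratios to WT of -0.69 and -1.15 (intervals -0.98 to -0.52 and -1.81 to -0.99). In FBS it was at 1.61 RPKM in OE and 1.80 in control on day 7, and 0.62 in OE and 0.90 in control on day 4. Mkrn3, a makorin gene known in humans for its part in the timing of puberty, was at 12.2 RPKM in KO with Dkk, 10.4 in KO and 16.1 in WT on day 10, and 6.44 in KO with Dkk, 4.40 in KO and 7.19 in WT on day 6. KO was again lowest and WT highest on both days, by less than 2-fold. Its FBS values were 1.66 RPKM in OE and 3.07 in control on day 7, and 2.70 in OE and 2.25 in control on day 4. Ube3a, a ubiquitin ligase gene expressed from the maternal allele in neurons, varied little, at 15.5 RPKM in KO with Dkk, 18.2 in KO and 21.6 in WT on day 10, and 13.03 in KO with Dkk, 14.1 in KO and 13.3 in WT on day 6. In FBS, Ube3a was at 10.2 RPKM in OE and 11.6 in control on day 7, and 8.67 in OE and 10.4 in control on day 4. Snrpn, which encodes a splicing protein, was above 1 RPKM on day 10 of SFEB alone, at 1.55 RPKM in KO with Dkk, 1.04 in KO and 2.74 in WT. Snurf, which shares a transcript with Snrpn, is listed at 0 in all 10 libraries, so these values are uncertain.

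The Peg10 domain contains the retrotransposon-derived gene Peg10, needed for the placenta, and its neighbour Sgce, which encodes a sarcoglycan, both paternally expressed. Peg10 was at 54.5 RPKM in KO with Dkk, 53.9 in KO and 108 in WT on day 10, and 32.99 in KO with Dkk, 91.5 in KO and 61.8 in WT on day 6. KO was the highest of the 3 on day 6 but lay below WT on day 10, where its ratio was -0.999 (interval -1.06 to -0.95), and the ratio of KO with Dkk to KO was -1.46 on day 6 (interval -1.54 to -1.40). In FBS, Peg10 was at 46.02 RPKM in OE and 268 in control on day 7, and 21.6 in OE and 26.02 in control on day 4. Sgce was at 15.9 RPKM in KO with Dkk, 20.7 in KO and 17.4 in WT on day 10, and 6.50 in KO with Dkk, 9.28 in KO and 8.51 in WT on day 6. The 3 kinds of cells lay within 1.5-fold of each other on each day. In FBS, Sgce was at 6.16 RPKM in OE and 40.1 in control on day 7, and 2.19 in OE and 5.07 in control on day 4. OE was 2-fold or more lower than control on both days, with ratios of -2.61 on day 7 (interval -2.93 to -2.48) and -1.05 on day 4 (interval -1.57 to -0.86).

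Asb4, which encodes a protein with ankyrin repeats and a SOCS box, was at 3.60 RPKM in KO with Dkk, 8.07 in KO and 3.21 in WT on day 10, and 2.80 in KO with Dkk, 3.03 in KO and 1.58 in WT on day 6. KO was highest on both days, and the ratio of KO with Dkk to KO was -1.06 on day 10. In FBS it was at 17.7 RPKM in OE and 36.2 in control on day 7, and 0.88 in OE and 1.18 in control on day 4, and both kinds of cells held far more on day 7 than on day 4, with ratios of 3.72 in OE and 4.45 in control. Among the 33 genes Asb4 had the highest day 7 to day 4 ratio in OE. Ppp1r9a, which encodes the synaptic protein neurabin, was at 6.45 RPKM in KO with Dkk, 7.48 in KO and 8.51 in WT on day 10, and 4.16 in KO with Dkk, 4.13 in KO and 5.07 in WT on day 6. Its FBS values were 2.85 RPKM in OE and 2.91 in control on day 7, and 2.53 in OE and 2.72 in control on day 4, level across the 4 libraries. Calcr, the calcitonin receptor gene, did not pass 1.51 RPKM in SFEB and was at 1.64 RPKM in OE and 0.13 in control on day 7, and 1.01 in OE and 0.91 in control on day 4. It was lowest in the library where Dlk1 and Dio3 were highest.

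Nnat lies in an intron of Blcap, and both encode small proteins. Nnat was at 1846 RPKM in KO with Dkk, 1434 in KO and 1558 in WT on day 10, and 178 in KO with Dkk, 365 in KO and 260.2 in WT on day 6. Day 10 exceeded day 6 in each kind of cell, with log2 ratios of 3.37 in KO with Dkk, 1.97 in KO and 2.58 in WT, and on day 6 the ratio of KO with Dkk to KO was -1.03. In FBS, Nnat was at 39.5 RPKM in OE and 123 in control on day 7, and 20.8 in OE and 19.8 in control on day 4. Blcap was at 30.2 RPKM in KO with Dkk, 31.6 in KO and 25.4 in WT on day 10, and 12.5 in KO with Dkk, 12.2 in KO and 11.4 in WT on day 6. The 3 kinds of cells lay close on both days, with more on day 10. In FBS, Blcap was at 6.59 RPKM in OE and 9.85 in control on day 7, and 6.58 in OE and 7.72 in control on day 4.

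Gnas, which encodes the stimulatory G protein alpha subunit and several imprinted isoforms that the table does not separate, was at 277 RPKM in KO with Dkk, 295 in KO and 197 in WT on day 10, and 192 in KO with Dkk, 221 in KO and 184 in WT on day 6. WT was lowest on both days, by less than 2-fold. In FBS, Gnas was at 83.03 RPKM in OE and 293 in control on day 7, and 49.1 in OE and 94.3 in control on day 4, with OE below control on both days at ratios of -1.81 on day 7 (interval -1.88 to -1.76) and -0.93 on day 4 (interval -1.01 to -0.87). Slc38a4 was at 2.27 RPKM in KO with Dkk, 8.23 in KO and 3.09 in WT on day 10, and 8.51 in KO with Dkk, 16.1 in KO and 12.7 in WT on day 6. KO was highest on both days, with a ratio to WT of 1.28 on day 10 (interval 0.99 to 1.83), and KO with Dkk lay below WT on both. In FBS, Slc38a4 was at 6.55 RPKM in OE and 112 in control on day 7, and 6.75 in OE and 17.0 in control on day 4. OE to control ratios were -4.00 on day 7 (interval -4.29 to -3.90) and -1.27 on day 4 (interval -1.52 to -1.15), so that Slc38a4 and Sgce were the 2 of 33 genes lower by 2-fold on both days, against 0.912% of all genes, while 0 were higher on both, against 0.807%. The day 4 ratio of Sgce was short of 2-fold with a pseudocount of 1 (-0.93) and with median centring (-0.97).

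Grb10, an adaptor that limits insulin receptor signalling and is expressed from the maternal allele in most tissues but the paternal one in neurons, was at 1.5 RPKM in KO with Dkk, 1.24 in KO and 4.20 in WT on day 10, and 0.76 in KO with Dkk, 1.29 in KO and 0.74 in WT on day 6. WT on day 10 stood above both knockout libraries, with a KO ratio of -1.43 (interval -2.75 to -0.82). In FBS, Grb10 was at 3.55 RPKM in OE and 1.28 in control on day 7, and 7.24 in OE and 4.17 in control on day 4, with OE above control on both days, by 1.19 and 0.73. This order is the reverse of that of Dlk1 and Mest on day 7. Impact, which encodes a regulator of translation, was at 38.8 RPKM in KO with Dkk, 44.1 in KO and 54.9 in WT on day 10, and 100.2 in KO with Dkk, 84.4 in KO and 96.9 in WT on day 6. It was lower on day 10 than on day 6 in each kind of cell. Its FBS values were 71.5 RPKM in OE and 70.1 in control on day 7, and 73.3 in OE and 62.5 in control on day 4, nearly level.

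Commd1, a gene of copper handling, was at 136 RPKM in KO with Dkk, 104 in KO and 85.3 in WT on day 10, and 139 in KO with Dkk, 132 in KO and 131 in WT on day 6. In FBS, Commd1 was at 98.1 RPKM in OE and 121 in control on day 7, and 102 in OE and 105 in control on day 4. Its intron holds Zrsr1, a splicing factor gene, which was at 13.2 RPKM in KO with Dkk, 14.6 in KO and 13.2 in WT on day 10, and 6.80 in KO with Dkk, 7.72 in KO and 5.81 in WT on day 6. FBS values of Zrsr1 were 7.70 RPKM in OE and 6.81 in control on day 7, and 8.61 in OE and 8.49 in control on day 4. Neither gene differed 2-fold between conditions on any day, and Zrsr1 was higher on day 10 than on day 6 in all 3 kinds of SFEB cells.

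In the SFEB culture, most genes of the set that differed between days were higher on day 10. Between day 10 and day 6, 12 of 32 genes were 2-fold or more higher on day 10 in KO with Dkk and 4 lower, 15 higher and 2 lower in KO, and 12 higher and 1 lower in WT. Of all genes, 17.6%, 21.1% and 16.9% were higher in the same cells, and 6.81%, 8.01% and 7.98% lower. The median log2 ratio over the 32 genes was 0.79 in KO with Dkk, 0.87 in KO and 0.82 in WT, against 0.14, 0.16 and 0.09 over all genes, and centring on that median left 14 higher and 4 lower in KO. Neuron markers differed in the same direction, with 10 of 10 higher on day 10 in each kind of cell and medians of 3.71 in KO with Dkk, 4.23 in KO and 3.42 in WT. Of 10 fibroblast markers, 5 were higher and 2 lower on day 10 in KO with Dkk, 7 higher and 0 lower in KO, and 5 higher and 1 lower in WT. Their part in the differences between days was not tested. Usp29, Cdkn1c, Dlk1, Meg3, Snrpn, Nnat and Blcap were 2-fold or more higher on day 10 in all 3 kinds of cells. The share of all genes higher in all 3 was not computed. Usp29, Snrpn, Dio3 and Calcr were under 1 RPKM in every SFEB library of day 6 and passed the filter only through day 10. They therefore had to be higher on day 10 in at least 1 kind of cell, and the counts include them where they passed 2-fold. The same holds for the markers Syt1, Lum, Postn and Dcn.

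Further lists place these genes in context. Of 20 genes of the imprint machinery, which write, read or erase the methylation of control regions, 19 passed the filter. Tet1, Tet3, Dnmt3b and Dnmt3l were 2-fold or more higher in OE on day 7 and 0 were lower, against 6.96% and 11.1% of all genes, with a median log2 ratio of 0.58. Tet3 itself is the overexpressed gene. Tet3 and Dnmt3l, a cofactor of the methyltransferases, were higher on day 4 too, 2 of 19, against 1.72% of all genes, and 0 were lower, against 3.47%. Zfp57 was at 19.5 RPKM in OE and 10.8 in control on day 7, and 34.4 in OE and 23.6 in control on day 4, and its partner Trim28 at 578 RPKM in OE and 362 in control on day 7, and 716 in OE and 565 in control on day 4. Dnmt1, which copies methylation at replication, was at 67.3 RPKM in OE and 54.9 in control on day 7, and 74.02 in OE and 66.2 in control on day 4. In KO, Dppa3, a protector of maternal methylation in the zygote, was 2-fold or more lower than in WT on both days, against 0.372% of all genes. Its SFEB values were low, 0.78 to 3.66 RPKM, and KO with Dkk lay below WT too, at -1.23 on day 10 and -1.42 on day 6. Dnmt3b and Dnmt3l were lower in KO on day 10 alone. With Dppa3 these made 3 of 19 lower on day 10, against 1.96%, and 0 were higher, against 8.26%.

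Of 39 other imprinted genes found in the table, 24 passed the filter in each culture. On day 7 of FBS, 6 were 2-fold or more lower in OE and 3 higher, against 11.1% and 6.96% of all genes, with a median of -0.41. Airn, Klf14 and Tspan32, all among the 6, passed the filter only through control cells on day 7. By this choice they had to be higher there. Igf2, a fetal growth factor gene, stood at 51.2 RPKM in OE and 1679 in control, and H19, its maternally expressed neighbour, at 9.51 RPKM in OE and 6.02 in control on that day. In KO, 6 of 24 were 2-fold or more higher than in WT on day 10 and 0 lower, against 8.26% and 1.96% of all genes, and 5 were higher and 1 lower on day 6, against 4.88% and 2.18%. Igf2, H19 and Ddc were higher on both days, against 2.11% of all genes. Th, counted as higher on day 10, passed the filter only through the knockout libraries of that day. Art5, counted as higher on day 6, passed it only through KO on that day.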

How the data were processed

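Total RNA libraries were sequenced on a SOLiD instrument, per the labels' protocols. The authors deposited 1 table of RPKM values, rounded to 2 decimals. HTSeq, which counts reads, and build mm9 stand in the submitters' processing notes. Aligner, annotation, strand setting and the handling of overlapping genes are not stated in what was used here. Each ratio is a difference of log2(RPKM + 0.5) between libraries, which understates differences of low genes. Genes reaching 1 RPKM within a culture were compared, and 2-fold or more was counted. With 1 library per condition and day, these ratios have no test. The days of a culture stood in for replicates in limma 3.58.1 (R 4.3.3), run on genes reaching 1 RPKM in any of the 10 libraries, with 3 residual degrees of freedom, and nothing in the labels says that cultures of different days were separate. Read totals were estimated from the steps of low RPKM values of 3932 genes with a single transcript in GENCODE vM21. At the chosen totals 59.7% to 73.4% of values lay within 0.15 read of a whole number, against a median of 23.7% to 25.8% at other totals. Reads of a gene were estimated from its median transcript length, and 95% Clopper-Pearson intervals of ratios cover counting error only. That length was short for some genes, 376 bases for Phlda2, 452 for Plagl1 and 607 for Mest. Where the deposited RPKM used a longer transcript, reads were underestimated and the intervals are too wide. Ratio, depth and model steps were tested on simulated data. Genes reaching 5 RPKM anywhere are given in every library. The 37 genes and the lists were chosen with earlier results of these data known. Alternatives were pseudocounts, filters, scalings, leaving out libraries, single cultures and no variance trend.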

Additional observations from a re-analysis of the deposited data

Results flagged for a closer look

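Some genes differed in opposite directions between days or kinds of cells, by 1.5-fold or more each way. With 1 library each, none of these differences was tested. Phlda2 had a log2 ratio of KO to WT of -1.06 on day 10 and 1.24 on day 6, and of KO with Dkk to KO of 0.61 on day 10 and -1.14 on day 6, on few estimated reads. In serum, OE to control ratios were -2.67 on day 7 and 0.61 on day 4 for Mest, and -5.71 on day 7 and 0.81 on day 4 for Dlk1. From day 4 to day 7 Dlk1 differed by -1.17 in OE and 5.35 in control cells. Day 10 against day 6 gave 0.71 in KO with Dkk, -0.76 in KO and 0.80 in WT for Peg10.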

How the results depend on the processing

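Of 119 ratios of single genes past 2-fold, each recomputed with pseudocounts of 0.1 and 1, TPM scaling and median centring (476 values), 0 changed direction. The number of imprinted genes past 2-fold stayed within 1.5 times under those settings, no filter and a filter of 5 RPKM, apart from comparisons with small counts. KO with Dkk against WT on day 6 had 1 gene, and 2 with a pseudocount of 0.1 or with TPM scaling. On day 10 the same comparison had 2, 1 with the 5 RPKM filter and 4 with TPM scaling or median centring. OE against control on day 4 had 2, and 1 with a pseudocount of 1 or with median centring. TPM scaling shifted the median log2 ratio of all genes to -0.103 for KO with Dkk against KO on day 10, to -0.129 for OE against control on day 4, and to 0.126 in KO with Dkk, 0.259 in KO and 0.183 in WT for day 10 against day 6.

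The additive limma model called 0 imprinted genes in each contrast, and 0 under the other pseudocounts, filters, scalings and variance prior. Fitted on the SFEB libraries alone it called 2 for KO against WT. Leaving out 1 library at a time gave 0 to 10 calls for OE against control and 0 to 0 for both SFEB contrasts, where a lone sample is assumed to vary like the other groups. The limma model compares libraries within each day of a culture. No paired analysis was possible beyond this because the labels give no replicate numbers. Depth limits the genes at low values in SFEB, such as Phlda2, Dio3, Slc22a18, Ascl2, Zim1 and Rasgrf1, which rest on few estimated reads.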
